A study of Oryctolagus cuniculus with 12 samples.

Results

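The transcription factor NRF2 (gene NFE2L2), its inhibitor KEAP1 and 8 genes that protect cells from oxidants were followed in rabbit conjunctiva after glaucoma filtration surgery. The 8 were HMOX1, NQO1, GCLC, GCLM, TXNRD1, SRXN1, PRDX1 and SOD2. The 10 genes were taken by symbol from a table of 20566 genes, and each had a single row and enough reads to be tested among 14835 genes.

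Trabeculectomy (TL) opens a route through the sclera so that aqueous humor collects under the conjunctiva in a filtering bleb. Female Japanese white rabbits, 12 to 14 weeks old, were operated on in the right eye with mitomycin C, an antiproliferative drug, under the flaps, followed by an injection of betamethasone, a steroid, and an antibiotic ointment. Conjunctiva including the bleb was taken 3 hours, 3 days or 14 days later (TL3h, TL3d and TL14d), and conjunctiva of unoperated left eyes was the control, with 3 RNA-seq libraries in each group. The control libraries are not tied to particular operated eyes or to a time of collection. Incision, mitomycin C, betamethasone and ointment came together in every operated eye, so that their parts cannot be told apart. The paper describes the levels of each operated group as averages of 3 eyes, and the right eye was the one operated on. The libraries of a group are not expressly called separate animals, and p-values measure the spread between these samples.

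In resting cells KEAP1 holds NRF2 in the cytoplasm and passes it to the proteasome. Oxidants and electrophiles modify cysteines of KEAP1, and NRF2 then accumulates, enters the nucleus and, with a small MAF partner, switches on genes that carry an antioxidant response element. Because this control acts on the protein, the mRNA of NFE2L2 need not follow its activity. The targets fall into groups. HMOX1 breaks down heme, GCLC and GCLM make the first step of glutathione synthesis, TXNRD1, SRXN1 and PRDX1 belong to the thioredoxin and peroxiredoxin system, and NQO1 reduces quinones. SOD2, the superoxide dismutase of mitochondria, is induced by inflammatory signals through NF-kB as well as by oxidative stress.

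In the OryCun2.0 rabbit genome, the table placed NFE2L2 at chr7:116894801-116930759 and NQO1 at chr5:25137496-25149679. HMOX1, TXNRD1 and SRXN1 lay apart from each other on chromosome 4, at chr4:86061028-86066626, chr4:83422309-83460951 and chr4:8229622-8232717. GCLM (chr13:70585735-70612677) and PRDX1 (chr13:121124991-121135657) shared chromosome 13, and GCLC (chr12:43272665-43320964) and SOD2 (chr12:149543414-149552019) shared chromosome 12. KEAP1 was on sequence not placed on a chromosome. These intervals span whole genes, introns included, and the reads counted were those assigned to the genes.

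Each library held 27111276 to 38591374 estimated counts. Levels are given as CPM (counts relative to the library total) after TMM scaling, which sets the libraries to a common level over most genes, and a change was called at an adjusted p (q) of at most 0.05 in edgeR's quasi-likelihood fit of all 12 libraries. The TMM factors were 0.768 to 0.783 in TL3h and 1.03 to 1.13 elsewhere. Without them, scaled by library size only, all genes had a median log2 fold change at 3 hours of −0.47 in place of 0.02, and the calls over all genes were 1889 higher and 5674 lower in place of 3435 and 3298. The conjunctival epithelium markers KRT4 and KRT5 averaged 3128 ± 1259.6 and 1963 ± 719 CPM (SD, n = 3) in the controls. Libraries of a group differed in tissue makeup. The summed fibroblast markers ran from 12464 to 77871 CPM over the controls and from 1389 to 65464 CPM over TL3d, and skeletal muscle markers were at 338 CPM in control replicate 2 and 441 CPM in TL3d replicate 3, against at most 9.57 CPM in any other library.

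Most of the calls came at 3 hours. At that time 7 of the 10 genes were higher than in the control and 0 were lower, with HMOX1 44.3-fold, TXNRD1 6.94-fold, GCLC 4.84-fold, SRXN1 4.51-fold, SOD2 1.96-fold, PRDX1 1.68-fold and NFE2L2 1.4-fold higher. At 3 days HMOX1 was called higher, at 3.41-fold, and the other 9 genes did not pass the test. At 14 days none of the 10 passed. KEAP1, NQO1 and GCLM passed at no time.

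The background was wide. At 3 hours 45.4% of all genes tested passed, 23.2% higher and 22.2% lower, and the median log2 fold change of the 10 genes was 0.86 against 0.02 over all genes. At 3 days 17.6% passed (10.6% higher, 7.0% lower), and the median of the 10 was 0.01 against −0.00. At 14 days 0% of the genes passed in edgeR (1538 at an unadjusted p under 0.05, and 367 called by DESeq2), and of the 10 genes 0 had an unadjusted p under 0.05 and 0 were called by DESeq2 or limma-trend. The TL3h and control libraries did not overlap for 8 of the 10 genes, each time with TL3h higher, where 57.3% of all genes did not overlap in either direction. At 3 days the count was 2 of 10 (HMOX1 and SRXN1), against 45.5% of all genes, and at 14 days 0 of 10, against 11.1%. The 10 genes and the lists below were chosen with earlier results of these data known, so comparisons with all genes are not independent tests.

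**Figure D1:**
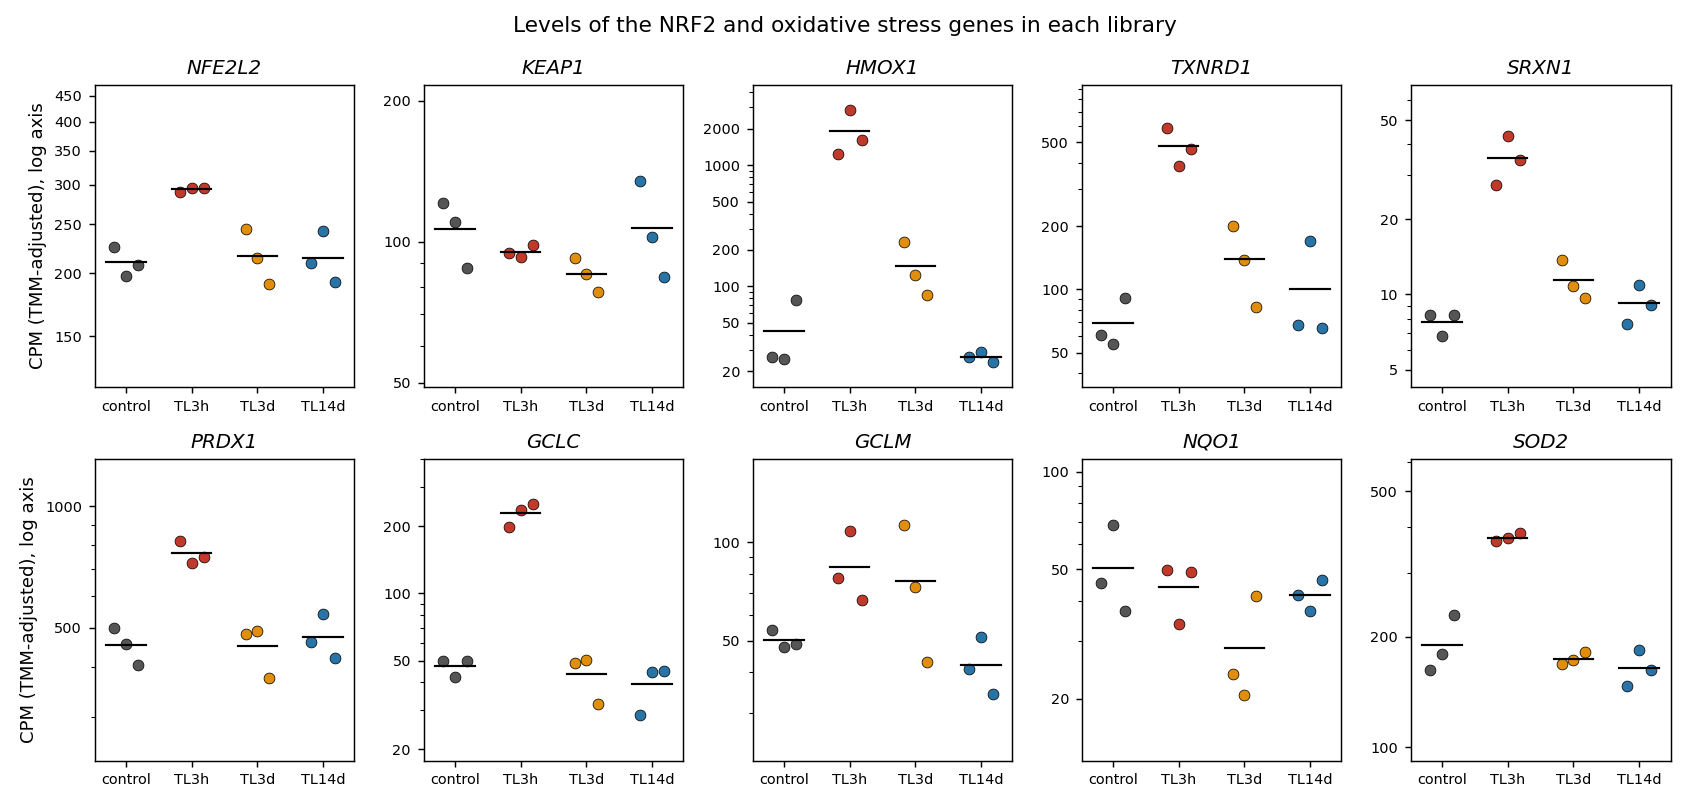
TMM-adjusted CPM (log axes with separate ranges) of the 10 genes in each library, with points for single libraries and lines for group means. HMOX1 is at 25.4 to 77.8 CPM in the controls and at 1237 to 2877 CPM in TL3h, while the KEAP1 and NQO1 points of these groups overlap.

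NFE2L2 mRNA was already abundant in the control conjunctiva. It was at 226, 198 and 208 CPM in the 3 control libraries and at 290, 296 and 296 CPM in TL3h. The groups did not overlap, and the TL3h libraries were close to each other. The log2 fold change was 0.48 (SE 0.13, q = 0.0143), but scaled by library size only it was −0.02 (q = 0.922), so that the direction of NFE2L2 rested on the scaling. The call was also lost when control replicate 2 or 3 or any single TL3h library was left out (q = 0.0503 to 0.0621, values 0.42 to 0.44), and q ran from 0.00582 to 0.922 over all alternatives. In TL3d it was at 245, 214 and 190 CPM and in TL14d at 210, 243 and 192 CPM. Both later groups lay across the control range, with log2 fold changes of 0.04 (q = 0.851) and 0.03 (q = 0.952).

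KEAP1 was at 121, 110 and 88.1 CPM in the control and at 94.7, 92.9 and 98.3 CPM in TL3h, within the control range. The log2 fold change was −0.16 (SE 0.18, q = 0.501) with TMM and −0.67 (q = 0.0179) with library size only, and q ran from 0.0179 to 0.846 over the alternatives. TL3d had 92.2, 85.4 and 78.3 CPM and TL14d 135, 103 and 84.1 CPM. Neither passed (−0.32, q = 0.217, and 0.01, q = 0.987).

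The ratio of NFE2L2 to KEAP1 within a library does not depend on the scaling. On the deposited FPKM, which are per length, NFE2L2 was 2.30 to 3.03 times KEAP1 in the control, 3.87 to 4.09 times in TL3h, 3.12 to 3.41 times in TL3d and 1.99 to 3.04 times in TL14d. The 3-hour and 3-day libraries all lay above the controls, and the 14-day libraries did not. With 3 libraries against 3, the exact two-sided permutation test cannot go below p = 0.1, which it gave at 3 hours and 3 days (0.15 adjusted over 9 such comparisons).

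HMOX1 encodes heme oxygenase 1, which opens the heme ring and releases iron, carbon monoxide and biliverdin. It was at 26.2, 25.4 and 77.8 CPM in the control and at 1237, 2877 and 1618 CPM in TL3h. The lowest TL3h library was far above the highest control, control replicate 3. This was a log2 fold change of 5.47 (SE 0.61, 95% interval 4.10 to 6.83, q = 0.000123), and it stayed called in all 20 alternatives, with values of 5.0 to 6.15, the highest without control replicate 3. Per length, HMOX1 moved from the seventh place of the 10 in the control (26.5 ± 17.4 FPKM, SD, n = 3) to the first in TL3h (857 ± 367 FPKM). PRDX1 was the next at 565 ± 41.6 FPKM, so that the spread of HMOX1 reached it, and in TL3h replicate 1 the order was the other way round, with 558 FPKM for HMOX1 and 606 FPKM for PRDX1.

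In TL3d HMOX1 was at 233, 124 and 85.3 CPM. All 3 libraries still exceeded the controls, though replicate 3 only by a small margin over control replicate 3. The log2 fold change was 1.77 (SE 0.52, 95% interval 0.61 to 2.93, q = 0.0435). The direction held in every alternative but the call did not. It was lost in 9 of the 20 alternatives, among them a fit of the 6 libraries compared (q = 0.0854) and the fits without control replicate 1 or 2 (1.51 and 1.5, q = 0.133 for both), TL3h replicate 1 or 3 (1.76 for both, q = 0.0527 and 0.061), TL3d replicate 1 or 2 (1.28, q = 0.152, and 1.88, q = 0.0929) or TL14d replicate 3 (1.77, q = 0.0602), and it was kept without control replicate 3 (2.49, q = 0.0204) or TL3d replicate 3 (2.05, q = 0.038). Over the alternatives q ran from 0.00513 to 0.152. In TL14d HMOX1 was at 26.4, 28.7 and 23.6 CPM, beside the control replicates 1 and 2 and below control replicate 3. The log2 fold change of −0.72 (q = 0.643) became 0.01 without control replicate 3.

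Heme comes with blood, and macrophages and neutrophils enter wounded tissue, so the marker lists of these cells are given beside HMOX1. Red blood cell markers summed to 0.332, 25.2 and 136 CPM in the control and to 361, 2482 and 388 CPM in TL3h. TL3h replicate 2 and control replicate 3 were the highest of their groups in both measures, and they were also the highest of their groups for the neutrophil, macrophage, fibroblast, endothelium and lymphocyte sums and the lowest for the epithelium sum. The sums were 57.5 to 102 CPM in TL3d and 7.36 to 68.3 CPM in TL14d. The list rests on few genes, since 2 of its 6 measured genes had enough reads to be tested, 1 of them higher at 3 hours.

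Neutrophil markers summed to 4.89 to 107 CPM in the control, 1286 to 3436 CPM in TL3h, 161 to 854 CPM in TL3d and 4.07 to 120 CPM in TL14d. All 9 tested markers were higher at 3 hours and 1 of 9 at 3 days. Over all genes 23.2% were called higher at 3 hours and 10.6% at 3 days. MPO, a gene of neutrophil granules transcribed in the bone marrow, was at or near 0 in every group, with at most 0.114 CPM. Monocyte and macrophage markers summed to 97.2 to 669 CPM in the control, 623 to 1022 CPM in TL3h, 950 to 1533 CPM in TL3d and 142 to 457 CPM in TL14d, with 2 of 7 higher at 3 hours and 4 of 7 at 3 days. The mean macrophage sum was higher in TL3d (1322 CPM) than in TL3h (785 CPM), though the libraries overlapped. CD14 (195 CPM in TL3h, 166 CPM in TL3d) and C1QC (144 and 113 CPM) had higher means in TL3h, and CSF1R, CD68, MRC1, MSR1 and MARCO in TL3d. Fibroblast markers summed to 106434 to 127880 CPM in TL3h, above every other library, and 0 of 8 passed the test. Epithelium markers summed to 4232 to 8590 CPM in the control, 4277 to 7305 CPM in TL3h, 6332 to 16574 CPM in TL3d and 8786 to 13353 CPM in TL14d, with 2 of 7 higher and 1 lower at 3 hours. At 3 days 1 of 7 was higher and 0 were lower. KRT4 and KRT5 made up most of these sums. From control to TL3d the mean of KRT5 went from 1963 to 7105 CPM, and KRT4, KRT8 and KRT18 also had higher means. EPCAM (155 to 111 CPM), CDH1 (636 to 573 CPM) and PAX6 (291 to 130 CPM) had lower means. Endothelium markers summed to 67.4 to 290.0 CPM in the control and 630 to 1249 CPM in TL3h (2 of 6 higher). PECAM1 made up most of the TL3h sum (mean 716 CPM against 55.8 CPM in the control). CDH5, VWF and CLDN5 also had higher means in TL3h, and KDR (32.8 to 18.6 CPM) and TEK (8.09 to 6.36 CPM) lower ones. Lymphocyte markers summed to 218 to 2461 and 1536 to 3529 CPM (1 of 6 higher, 1 lower), nearly all of it JCHAIN (means 1052 and 2343 CPM). Of the others, CD3E (3.77 to 2.44 CPM) and CD3D (1.70 to 0.651 CPM) had lower means in TL3h, and CD2, CD79B and MS4A1 higher ones. In bulk tissue, more cells of a type and more RNA per cell cannot be told apart, and the part of these cell types in the changes of HMOX1 and the other genes was not tested.

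**Figure D2:**
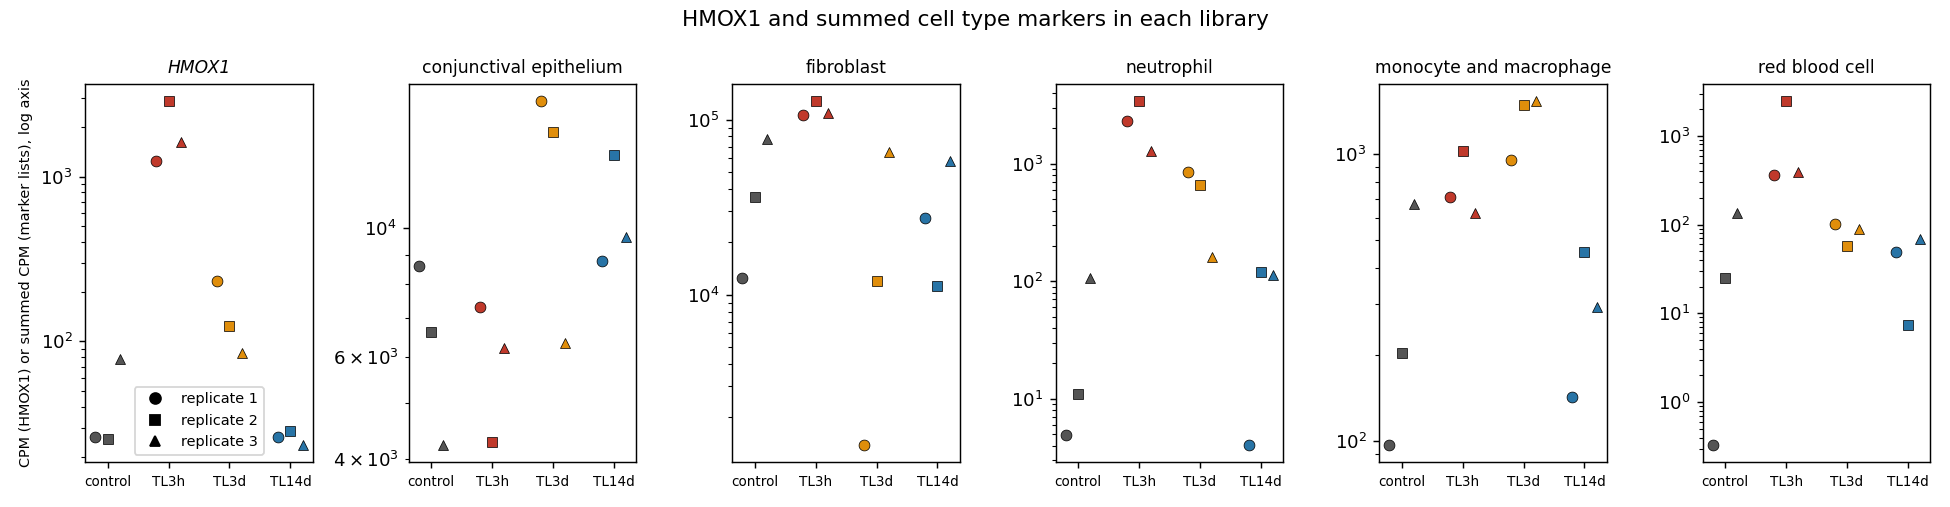
CPM of HMOX1 and summed CPM of 5 cell type marker lists in each library (log axes with separate ranges, marker shape giving the replicate). Neutrophil sums rise from at most 107 CPM in the controls to 1286 CPM or more in TL3h, and TL3h replicate 2 is the highest of its group for HMOX1 and for the fibroblast, neutrophil, macrophage and red blood cell sums alike.

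Glutathione synthesis begins with glutamate-cysteine ligase, built from the catalytic subunit GCLC and the modifier subunit GCLM. GCLC was at 49.6, 42.4 and 49.6 CPM in the control and at 198, 236 and 251 CPM in TL3h. The groups were well apart and each was narrow. The change on the log2 scale was 2.27 (SE 0.23, 95% interval 1.77 to 2.77, q = 6.92e-05). In TL3d it was back at 48.6, 50.4 and 32.0 CPM and in TL14d at 28.4, 44.3 and 44.8 CPM. Both groups overlapped the control (−0.11, q = 0.738, and −0.27, q = 0.69).

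GCLM was at 54.0, 47.7 and 48.8 CPM in the control, 77.6, 109 and 66.5 CPM in TL3h, 113, 73.2 and 43.0 CPM in TL3d, and 41.0, 51.2 and 34.3 CPM in TL14d. The TL3h libraries all exceeded the controls, while TL3d spread from below the controls to the highest value of all. At 3 hours the log2 fold change was 0.75 (SE 0.31, q = 0.0765). It passed in a fit of the 6 libraries compared (q = 0.0258) and without TL3d replicate 1 or 3 (q = 0.0373 and 0.0276), with q from 0.0258 to 0.56 over the alternatives. The 3-day value of 0.61 (SE 0.31, q = 0.19) passed only without TL3d replicate 3 (0.89, q = 0.0469), among alternatives with q from 0.0469 to 0.647. At 14 days it was −0.25 (q = 0.807).

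The subunits were also compared within each library. The FPKM of GCLC over that of GCLM was 1.07 to 1.23 in the control, 2.62 to 4.56 in TL3h, 0.521 to 0.900 in TL3d and 0.839 to 1.58 in TL14d. All TL3h libraries were above the controls and all TL3d libraries below them, with p = 0.1 in each case, the smallest the exact two-sided permutation test allows (0.15 adjusted). At 14 days the ratio overlapped the control (p = 0.9 in the same exact test).

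TXNRD1, thioredoxin reductase 1, returns oxidized thioredoxin to its active form with NADPH. It was at 60.6, 54.8 and 91.4 CPM in the control and at 586, 386 and 464 CPM in TL3h. All TL3h libraries were far above the controls, and the log2 fold change was 2.79 (SE 0.45, 95% interval 1.79 to 3.80, q = 0.000812). TL3d had 199, 138 and 82.0 CPM, with replicate 3 inside the control range and the other two above it. The log2 fold change of 1.02 (SE 0.43, q = 0.114) did not pass. TL14d had 67.5, 169 and 65.7 CPM. Replicate 2 alone exceeded the controls, and the value of 0.55 (q = 0.678) was −0.05 without it.

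SRXN1, sulfiredoxin, repairs peroxiredoxins that have been overoxidized. Per length it was among the lowest of the 10 in the control, at 10.2 ± 0.949 FPKM beside GCLM at 10.9 ± 0.930 FPKM, and these did not differ beyond their spread. It was at 8.24, 6.80 and 8.30 CPM in the control and at 27.4, 43.2 and 34.7 CPM in TL3h, with no overlap. This gave a log2 fold change of 2.17 (SE 0.22, 95% interval 1.68 to 2.67, q = 8.19e-05). In TL3d the libraries at 13.7, 10.8 and 9.70 CPM were still all above the controls. The value of 0.55 (SE 0.22, q = 0.0974) did not pass, and q was above 0.05 in each single-library omission (0.0781 to 0.292). TL14d had 7.60, 10.9 and 9.08 CPM (0.24, q = 0.721).

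PRDX1 encodes peroxiredoxin 1, an abundant peroxidase of the cytosol, and was first of the 10 per length in the control, at 466 ± 63.1 FPKM. It was at 500, 455 and 405 CPM in the control and at 820, 725 and 747 CPM in TL3h. TL3h stood clear of the control, with a log2 fold change of 0.75 (SE 0.16, q = 0.00381). With library size only it was 0.25 (q = 0.286), and q ran from 9.68e-05 to 0.286 over the alternatives. TL3d (484, 492 and 374 CPM) and TL14d (460, 541 and 420 CPM) overlapped the control (−0.01, q = 0.966, and 0.06, q = 0.912).

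The repair enzyme was likewise set against its substrate. SRXN1 over PRDX1, in FPKM, was 0.0191 to 0.0262 in the control, 0.0427 to 0.0763 in TL3h, 0.0280 to 0.0362 in TL3d and 0.0211 to 0.0277 in TL14d. The 3-hour and 3-day libraries lay above every control (exact two-sided permutation p = 0.1 each, the smallest possible, 0.15 adjusted), and the 14-day libraries overlapped them.

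NQO1 encodes a quinone reductase that is often used as a readout of NRF2 activity. It was at 45.4, 68.5 and 37.3 CPM in the control and at 49.6, 33.9 and 49.2 CPM in TL3h. The groups overlapped, with a log2 fold change of −0.19 (SE 0.30, 95% interval −0.85 to 0.47, q = 0.642), which was 0.09 without control replicate 2. The upper end of the interval lay below the lower ends for HMOX1, TXNRD1, GCLC and SRXN1. TL3d had 23.8, 20.6 and 41.3 CPM. Replicates 1 and 2 were below every control and replicate 3 was inside their range. The value of −0.82 (SE 0.30, q = 0.0796) passed without TL3d replicate 3 (−1.18, q = 0.028) and with DESeq2 (q = 0.0335), among alternatives with q from 0.028 to 0.26. TL14d had 41.6, 37.2 and 46.4 CPM (−0.27, q = 0.773).

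SOD2 turns superoxide into hydrogen peroxide in mitochondria. It was at 162, 180 and 229 CPM in the control and at 365, 373 and 384 CPM in TL3h. The TL3h libraries were close together and clear of the control, and the log2 fold change was 0.97 (SE 0.15, 95% interval 0.65 to 1.30, q = 0.000567). It stayed called with library size only, at 0.48. TL3d (169, 173 and 182 CPM) and TL14d (147, 185 and 163 CPM) overlapped the control, with −0.13 (q = 0.559) and −0.21 (q = 0.635).

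**Figure D3:**
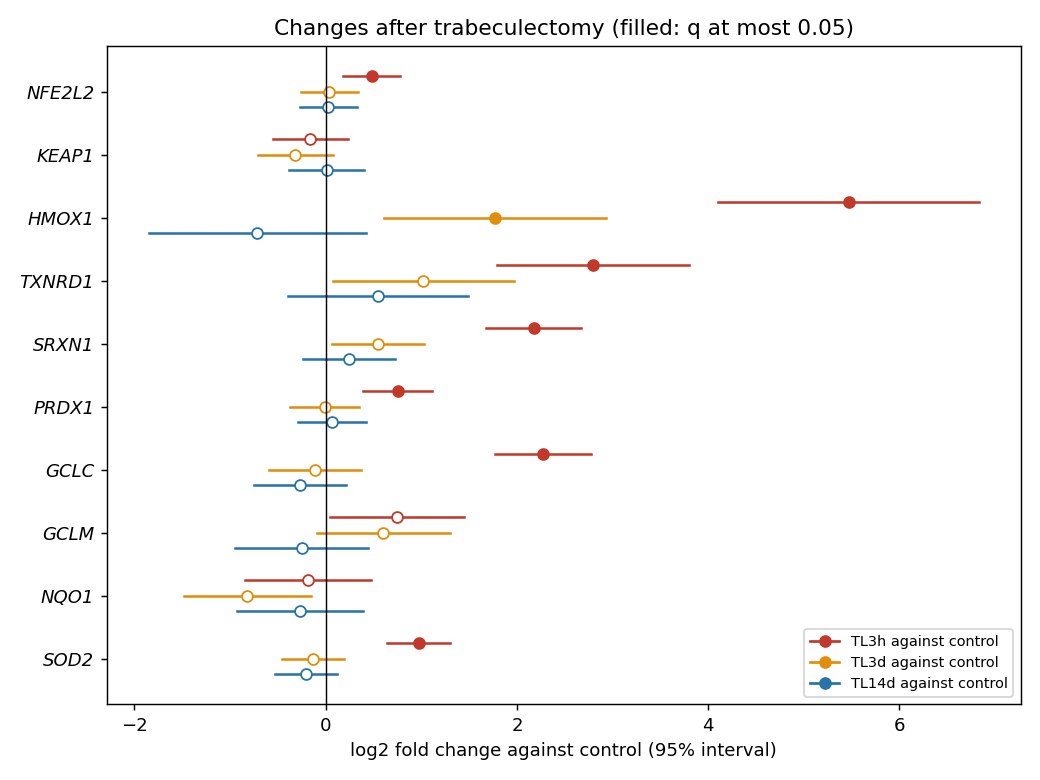
log2 fold changes of the 10 genes against control at each of the 3 times, with 95% intervals and filled points where q was at most 0.05. Of the 3-hour points 7 are filled, of the 3-day points only HMOX1, and of the 14-day points none.

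**Figure D4:**
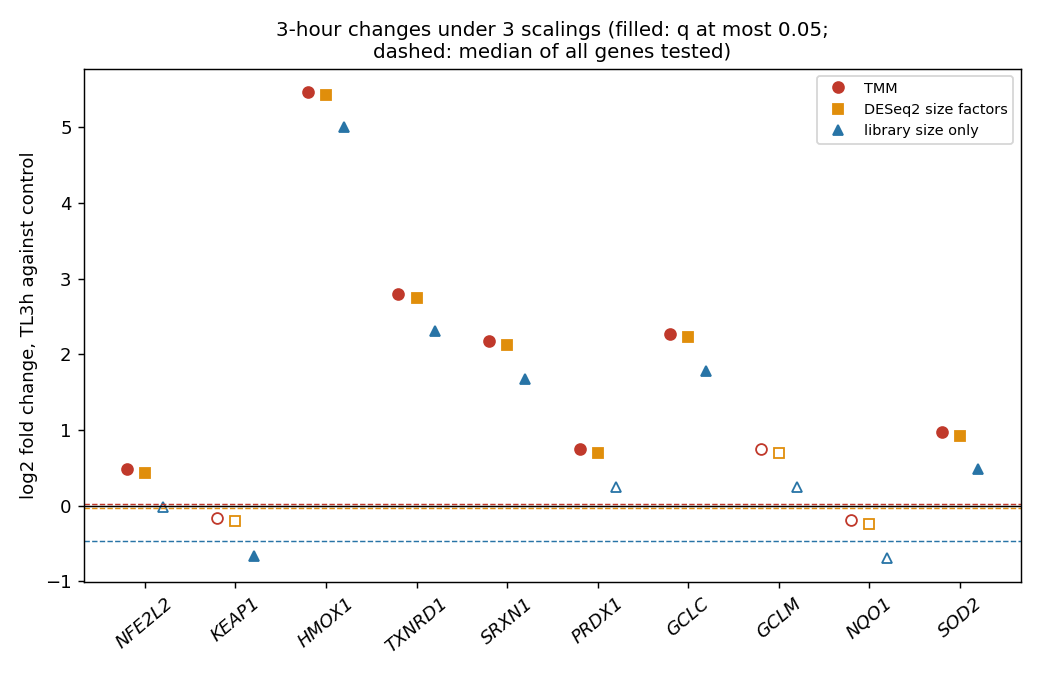
log2 fold changes at 3 hours under TMM, DESeq2 size factors and library size only, with dashed lines at the median of all genes tested. With library size only, all points and the median (−0.47) sit lower, NFE2L2 is at −0.02, and HMOX1, TXNRD1, SRXN1, GCLC and SOD2 remain called higher.

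The scaling set how many of the 10 genes were called at 3 hours. With TMM it was 7 higher and 0 lower, and with library size only 5 higher and 1 lower, the lower one being KEAP1. HMOX1, TXNRD1, GCLC, SRXN1 and SOD2 were called higher under both.

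From 3 hours to 3 days 7 of the 10 genes fell and 0 rose, with a median log2 difference of −0.93 against −0.05 over all genes. The background was 37.3% of all genes, 18.4% higher and 19.0% lower. The libraries did not overlap for 8 of the 10, all lower in TL3d, against 54.7% of all genes. HMOX1 fell by 3.70 on the log2 scale (SE 0.56, q = 0.000772), GCLC by 2.39 (SE 0.23, q = 5.93e-05), TXNRD1 by 1.77 (SE 0.43, q = 0.00972) and SRXN1 by 1.62 (SE 0.22, q = 4e-04). SOD2 fell by 1.10 (SE 0.15, q = 0.000386), PRDX1 by 0.76 (SE 0.16, q = 0.00453) and NFE2L2 by 0.44 (SE 0.13, q = 0.026). With library size only the difference was 0.04 for NFE2L2 (q = 0.855) and −0.28 for PRDX1 (q = 0.236), and the 5 other genes were called lower. That scaling put the median of all genes at 0.43 and turned their calls from 2725 higher and 2812 lower to 5078 and 1233. This comparison shares the TL3h libraries with the one against control.

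Within a group, some libraries were high or low for many of the 10 genes. In TL3d, replicate 3 was lowest for 8 of the 10 genes and replicate 1 highest for 6, and in TL14d replicate 2 was highest for 7. TL3d replicate 3 was also the library with 65464 CPM of fibroblast markers, against 1389 and 11935 CPM in the other two. Across the 12 libraries, on log2(CPM + 0.5), the strongest pairs were HMOX1 with SRXN1 (Pearson r = 0.96), GCLC with SOD2 (0.96) and NFE2L2 with PRDX1 (0.95), and the lowest was NQO1 with GCLM (−0.52). The genes of a pair share libraries and scaling. The TL3h libraries lay above all 9 others for HMOX1, SRXN1, GCLC, SOD2, NFE2L2, PRDX1 and TXNRD1, so that the values describe these libraries only.

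The genes whose profile was most like that of each member were sought among 13274 genes that averaged 1 CPM or more, over the same 12 libraries. HMOX1 was nearest to STK40 (r = 0.99), GCLC to SCAF4 (0.99), SRXN1 to POLR3E (0.99) and SOD2 to FYTTD1 (0.99). TXNRD1 was nearest to PNP (0.99), NFKB2 and SERPINB2 (0.98 each), and NFE2L2 to MFAP1 (0.98) and KDM5C (0.97). PRDX1 was nearest to IWS1 (0.97), GCLM to CEPT1 (0.93) and NQO1 to CPD (0.91). None of the nearest genes was a member or in a list below.

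Transcripts were also counted. The 10 genes had 18 listed transcripts, 4 genes having several, and 28.3% of 26082 transcripts tested passed at 3 hours, 5.13% at 3 days and 0% at 14 days. Estimated counts are divided among transcripts that share exons, so these values are less certain than those per gene. NFE2L2 had a main transcript of 2426 bases and minor ones of 2312 and 2399 bases. The transcript of 2312 bases was at 25.4, 24.0 and 20.2 CPM in the control and at 53.1, 69.7 and 34.8 CPM in TL3h, with no overlap (log2 fold change 1.18, SE 0.25, q = 0.00612). The main one was at 218, 192 and 205 CPM and at 256, 249 and 279 CPM, also without overlap, and its change of 0.35 (SE 0.14, q = 0.0921) did not pass. The transcript of 2399 bases lay the other way, at 5.62, 4.78 and 3.50 CPM in the control and 3.08, 0.393 and 1.88 CPM in TL3h, without overlap, and its change of −1.37 (SE 0.61, q = 0.122) did not pass. The differences between the transcripts were not tested.

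A minor KEAP1 transcript of 2749 bases was at 20.3, 18.1 and 14.6 CPM in the control and fell to 8.91, 6.40 and 9.66 CPM in TL3h (−1.09, SE 0.29, q = 0.0196). The main KEAP1 transcript of 2696 bases did not pass (−0.05, SE 0.17, q = 0.863), nor did those of 2719 bases (−0.06, q = 0.914) and 2828 bases (−1.87, q = 0.0595). For GCLC, the transcripts of 3589 bases (2.29, q = 0.000103) and 1914 bases (2.20, q = 0.000409) were both higher at 3 hours, with close values, and that of 3472 bases did not pass (1.88, q = 0.209). Neither NQO1 transcript passed (0.73, q = 0.335, and −0.41, q = 0.35). The single HMOX1 transcript had q = 0.0763 at 3 days in the transcript table.

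The remaining genes of the pathway were taken from 8 lists with 107 genes, of which 90 were measured and 86 tested. At 3 hours 28 were higher and 13 lower, 41 of 86 or 47.7%, close to the background of 45.4%, with a median log2 fold change of 0.25. With library size only the calls were 23 higher and 25 lower. At 3 days 14 were higher and 6 lower (23.3% against 17.6%, median 0.19), and at 14 days 0 passed, with 11 at an unadjusted p under 0.05 and 1 called by DESeq2. In single lists 25% to 57.9% of the tested genes passed at 3 hours and 12.5% to 45.5% at 3 days. From 3 hours to 3 days 8 were higher and 20 lower, which became 22 and 7 with library size only. The 3-day count was 4 without control replicate 1, 2 without control replicate 2, and 4 without either TL3d replicate 1 or TL3d replicate 2. In the same 4 fits the calls over all genes went from 2608 to 491, 370, 449 and 359, so that the list genes moved with the background. At 14 days 3 list genes passed without TL14d replicate 1, as did 716 of all 15114 genes tested in that fit. The count between 3 hours and 3 days was 17 without TL3h replicate 1 and 12 without TL3d replicate 2, with 4742 and 3954 calls over all genes in place of 5537. Of the 19 list genes that the naming rule takes at 3 days, 15 lost their call without control replicate 1, 17 without control replicate 2, 15 without TL3d replicate 1 and 15 without TL3d replicate 2, and 0 changed sign in any alternative. Of the 27 it takes at 3 hours, CCS, NOX1, NQO2 and TKT lost their call in some of these omissions.

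Of the regulators of NRF2, 3 of 8 were higher at 3 hours and 0 lower, 37.5% against 45.4% of all genes called. MAFF, a small MAF protein, was 14.9-fold higher, at 7.72 to 17.5 CPM against 0.617 to 1.2 CPM (log2 3.89, q = 0.000149), with a log2 value of 3.25 in limma-trend. BACH1, the repressor that competes for the antioxidant response element and is released by heme, was 4.20-fold higher, at 323 to 399.8 CPM against 77.9 to 92.4 CPM (q = 0.000139). SQSTM1, the autophagy receptor p62 that binds KEAP1, was 2.18-fold higher (q = 0.00219). BACH1 was also the single regulator called at 3 days, at 2.32-fold (q = 0.014).

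In the glutathione system 7 of 19 were higher and 4 lower at 3 hours, 57.9% against 45.4% of all genes called. The cystine importer SLC7A11 and its partner SLC3A2 were 5.49-fold and 6.64-fold higher (q = 0.00924 and 0.000243), and GLRX, glutaredoxin, was 7.34-fold higher (log2 2.88, q = 0.0025), with a log2 value of 2.22 without TL3h replicate 2. CHAC1, which degrades glutathione, went from 0, 0.1 and 0.15 CPM, levels of a few reads at most, to 7.15, 8.30 and 9.15 CPM (q = 0.000613). The 4 lower genes, listed after their values were seen, were GSR, glutathione reductase (log2 fold change −1.88, q = 0.000126), GSS, glutathione synthetase (−1.45, q = 0.00456), GPX2 (−1.99, q = 0.00837) and GSTZ1 (−0.53, q = 0.02). At 3 days 2 were higher, CHAC1 (q = 0.0131) and GLRX (4.25-fold, q = 0.0312), and GSR was lower (−0.81, q = 0.0277).

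In the thioredoxin and peroxiredoxin system 4 of 12 were higher and 2 lower at 3 hours, 50% against 45.4% of all genes called. TXN, thioredoxin, was at 259 to 319.5 CPM against 45.0 to 55.6 CPM, 5.71-fold higher (q = 0.000199). SESN2, a stress-induced sestrin, was 4.0-fold higher (q = 0.00114) and TXNL1 2.09-fold (q = 0.000976), while the mitochondrial reductase TXNRD2 was lower (−0.98, q = 0.00501). PRDX3 (higher) and TXN2 (lower) were named after their values were seen. At 3 days SESN2 (5.44-fold, q = 0.00873) and TXN (2.52-fold, q = 0.0192) were higher, and PRDX6 was lower (−1.10, q = 0.0446).

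Of the 4 genes of superoxide and peroxide removal, CCS, the copper chaperone of SOD1, was lower at 3 hours (−0.61, q = 0.0303) and SOD1 at 3 days (−1.24, q = 0.0361). In contrast to SOD2, SOD1 was at 141 to 373 CPM in the control and at 155 to 221 CPM in TL3h, and did not pass at that time.

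Of the genes for heme and iron, 5 of 14 were higher and 1 lower at 3 hours, 42.9% against 45.4% of all genes called. The ferritin heavy chain FTH1 was at 2806 to 4924 CPM against 734 to 1499.6 CPM (3.51-fold, q = 0.000891). The transferrin receptor TFRC was 5.68-fold higher (q = 0.00259), the heme exporter FLVCR1 4.03-fold (q = 0.00109) and HMOX2, the second heme oxygenase, 4.01-fold (q = 0.000112). FTL, the light chain, was also higher and SLC40A1, the iron exporter ferroportin, lower, both named after their values were seen. At 3 days FTL (2.94-fold, q = 0.00794) and FTH1 (2.17-fold, q = 0.0303) were higher, and 0 of 14 were lower.

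Of 6 enzymes that supply NADPH, 1 was higher and 2 were lower at 3 hours, 50% against 45.4% of all genes called. The lower ones were IDH1 (−1.11, q = 0.00406) and TKT (−0.88, q = 0.0186). At 3 days PGD was 1.58-fold higher (q = 0.0268). Of 12 detoxifying enzymes and exporters, 3 were higher and 3 lower at 3 hours, also 50%, with a median of −0.37. UGDH, which makes UDP-glucuronate both for glucuronidation and for hyaluronan, was at 1612 to 2164 CPM against 88.2 to 119 CPM, 18-fold higher (q = 1.59e-05). TRIM16 was 3.88-fold (q = 0.00871) and NQO2 2.34-fold higher (q = 0.0248), while the exporter ABCC4 was lower (−1.45, q = 0.00875). NQO2 was not called with library size only (q = 0.108). At 3 days ABCC3 (3.75-fold, q = 0.014) and UGDH (1.77-fold, q = 0.0218) were higher, and ABCC4 (−1.62, q = 0.0199) and ALDH2 (−1.34, q = 0.0303) lower.

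The NADPH oxidases make superoxide rather than remove it. At 3 hours 5 of 11 tested genes were higher and 0 lower, 45.5% against 45.4% of all genes called, with a median log2 fold change of 1.28. NCF1 was 9.10-fold higher (q = 0.0105) and RAC2 3.66-fold (q = 0.00719), both parts of the oxidase of phagocytes, and NCF4 of the same complex was also higher. In limma-trend the log2 value of NCF1 was 2.45 in place of 3.19 at 3 hours and 2.63 in place of 3.41 at 3 days. NOX1 was called (q = 0.0134) at 0.249 to 1.5 CPM against 0.0237 to 0.13 CPM, levels of a few reads in the control. At 3 days 4 were higher and 1 lower, 45.5% against 17.6% of all genes called. NCF1 (10.6-fold, q = 0.0252), NCF4 (5.65-fold, q = 0.0181) and RAC2 were among the higher genes, and NOX5 was lower (−3.24, q = 0.0178). The neutrophil sums given above were higher in every TL3h and TL3d library than in any control, and the macrophage sums in every TL3d library, while the macrophage sums of TL3h overlapped the control. The part of these cells was not tested.

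**Figure D5:**
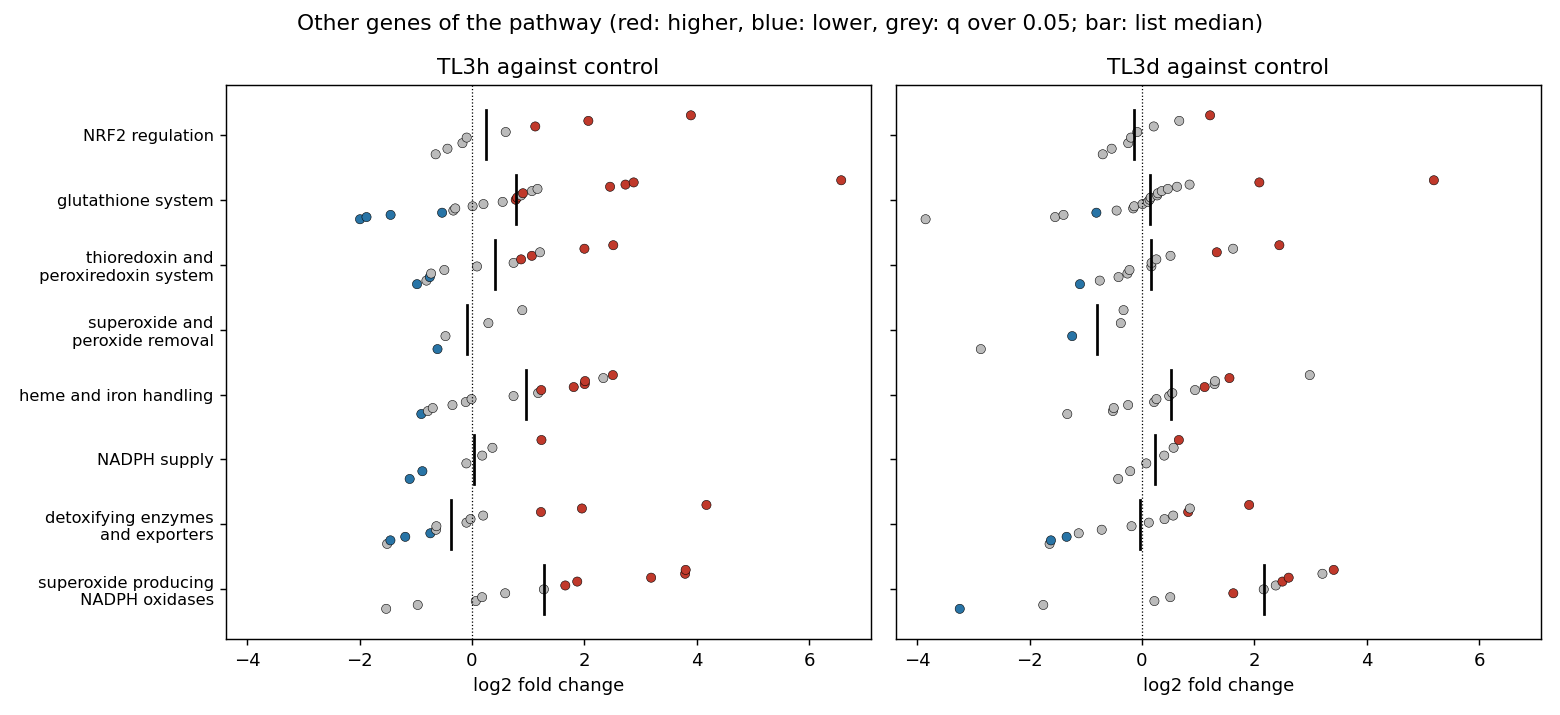
log2 fold changes of the 86 tested genes of 8 pathway lists at 3 hours and 3 days, red where called higher, blue where called lower and grey otherwise, with a bar at each list's median. The list medians at 3 hours run from −0.37 for detoxifying enzymes and exporters to 1.28 for the NADPH oxidases, and 41 points are colored at 3 hours against 20 at 3 days.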

How the data were processed

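RNA of conjunctiva was made into stranded mRNA libraries and sequenced as paired reads. The authors aligned them with STAR 2.6.0c, using the OryCun2.0 assembly, and deposited estimated counts per gene and per transcript, 23.4% of them not whole in the gene table, beside FPKM scaled by library size. How reads of shared or overlapping genes were divided, and the strand setting, are not given in the sources used here. Estimated counts were rounded and tested with edgeR 4.0.16 (R 4.3.3) after the filter filterByExpr (minimum count 10, total 15), TMM scaling and a quasi-likelihood fit of all 12 libraries, with Benjamini-Hochberg adjustment over all genes tested. SE is the log2 fold change over the root of F. FPKM served for levels between genes and for ratios within a library, tested by an exact two-sided permutation test.

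Groups came from the sample labels. No 2 libraries of a group agreed within sampling noise. On data simulated for TL3h against control (14683 genes), 77 of 100 genes changed 8-fold and 13 of 100 changed 2-fold were recovered, with 3 of 14483 unchanged genes called. The lowest level that 3 counts give was 0.0712 to 0.124 CPM, which covers counting error only.

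The members, the pathway lists and the marker lists were chosen with earlier results of these data known. Named list genes were up to 4 per list and time with the largest change among those past the threshold, some of which are not reported here, and like genes were the 3 with the highest Pearson r per member, from which examples are printed. DESeq2 1.42.0, limma 3.58.1 (limma-trend), other scalings and filters, a fit of 6 libraries, a replicate block and the omission of each library were alternatives. Promoter and protein sequences were not used here, and MicroShunt libraries were not analysed here.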

Additional observations from a re-analysis of the deposited data

Results flagged for a closer look

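For 7 of the 10 genes the effect at 3 days differed from that at 3 hours by a direct test of the difference between TL3d and TL3h, in which the shared control drops out (edgeR, q at most 0.05). The differences, as log2 values of TL3d minus TL3h, were −3.70 for HMOX1, −2.39 for GCLC, −1.77 for TXNRD1, −1.62 for SRXN1, −1.10 for SOD2, −0.76 for PRDX1 and −0.44 for NFE2L2. The values for HMOX1, GCLC, TXNRD1, SRXN1 and SOD2 stayed past the threshold in all 20 alternatives. PRDX1 did not pass with library size only, and NFE2L2 did not pass in 8 of the 20, with a sign change to 0.04 with library size only. Groups of 3 were not tested for single outlying samples.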

How the results depend on the processing

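Of 800 alternative values for the 10 genes, 742 kept their direction and side of the threshold, 23 lost the call, 8 gained one and 27 changed sign. With library size only, the log2 values that changed sign were −0.0204 for NFE2L2 at 3 hours, −0.00803 for KEAP1 at 14 days, and 0.345, 0.317 and 0.0383 for GCLM, KEAP1 and NFE2L2 in TL3d against TL3h. KEAP1 at 14 days also changed sign with DESeq2 size factors (−0.00112), the DESeq2 test (−0.00119) and limma-trend (−0.00307). Leaving out single libraries gave log2 ranges across 0 at 14 days of −0.987 to 0.0106 for HMOX1, −0.19 to 0.16 for KEAP1, −0.0676 to 0.104 for NFE2L2, −0.458 to 0.0115 for NQO1, −0.0446 to 0.143 for PRDX1 and −0.0511 to 0.789 for TXNRD1. At 3 days these were −0.228 to 0.0690 for GCLC, −0.0570 to 0.126 for NFE2L2, −0.104 to 0.106 for PRDX1 and −0.231 to 0.0118 for SOD2, at 3 hours −0.418 to 0.0940 for NQO1, and in TL3d against TL3h −0.53 to 0.15 for GCLM. The counts of the 10 genes called at 3 hours (6 to 8 without single libraries) and in TL3d against TL3h (6 to 7) stayed within 1.5 times the reported count in all alternatives, and 0 were called at 14 days in any. At 3 days, in place of 1, DESeq2 called 2 (HMOX1 higher, NQO1 lower), the fit of 6 libraries 0, and omissions 0 to 3. For the pathway lists, omissions gave 32 to 51 calls at 3 hours, 2 to 30 at 3 days, 0 to 3 at 14 days and 12 to 30 in TL3d against TL3h, and DESeq2 gave 37 at 3 days and 1 at 14 days. The calls over all genes moved too, at 3 days from 359 to 3778 over the omissions and to 4471 with DESeq2, against 2608. Of 918 alternative values for 46 named list values, 88 lost the call, 75 of them at 3 days, and 0 changed sign. The causes were not tested.

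Replicate numbers are shared by the groups. The deviations of samples with the same number had r from −0.16 to 0.53 (18 pairs, median 0.06, 8 over 0.1), and those with different numbers from −0.57 to 0.43 (36 pairs, median −0.04, 10 over 0.1). Since not every same-number pair was over 0.1, the number was not taken as a pairing. With a replicate block, 0 of the 10 genes were called at 3 days (HMOX1 1.81, q = 0.0686), 7 at 3 hours and 7 in TL3d against TL3h, and 26 list genes at 3 days. With 3 libraries a group, the simulation above recovered few 2-fold changes, so changes of the size of GCLM or NQO1 could be missed.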
